A study of Mus musculus with 6 samples.

Results

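The genes described here act when a cell divides its chromosomes and then itself. They are the kinase CDK1 with its cyclins and regulators, the anaphase-promoting complex and its ubiquitin enzymes, other mitotic kinases, 2 transcription factors, kinesin motors, cytokinesis proteins, spindle proteins and 2 chromosome proteins. The list was chosen by function, with earlier results of these data known, so its counts are descriptions. It holds 54 genes. Each was read from the brightest probe set, by mean signal over the arrays, that the platform annotation assigns to that gene alone. Of the 54, 53 had such a probe set, out of 11963 genes on the array, and 51 passed a filter on dim probe sets that left 8161 genes.

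The study compared C2C12 myotubes with C2C12 myoblasts, on 3 arrays of each. C2C12 is a line of mouse muscle precursors. Its dividing, single-nucleus myoblasts can be led to leave the cell cycle and fuse into multinucleated myotubes. Per the labels, the 3 myotube arrays came from cells kept with 2.5% horse serum, and no culture condition is given for the 3 myoblast arrays. Sample titles set the groups, since the source name of every sample reads myoblast. Myoblast array 3 is titled as growing cells without a stage, and it is placed with the myoblasts by a description whose numbers name only the first 2. All arrays were of the HG-U133A design, made for human transcripts. The stated organism is mouse, so which species the RNA came from was not settled, and each name given is that of the human gene a probe set was made to detect. Nothing in the labels tells whether arrays of a group were separate cultures, so the p-values reflect how these arrays scattered, which could be technical scatter alone.

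As background, CDK1 bound to cyclin B drives entry into mitosis, and its activity is set by the kinases WEE1 and PKMYT1, the CDC25 phosphatases and small CKS subunits. The anaphase-promoting complex, with CDC20 and later FZR1, marks proteins, cyclins among them, for destruction, so that chromosomes part and the cell exits mitosis. Kinesins, microtubule-binding proteins and the Aurora and Polo kinases build the spindle, and the central spindle then directs the cut between the daughter cells. Many of these genes are switched on together late in the cycle by FOXM1 and by MYBL2 joined to the MuvB core. In resting cells the same core, as part of the DREAM complex, holds them off through a promoter element called the cell cycle homology region, often next to CCAAT boxes that bind NF-Y. A muscle cell that has fused into a myotube has normally left the cell cycle for good.

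Those promoter elements can be read in the sequences of the genes. The windows below are mouse promoters from RefSeq (build GRCm38.p6), matched to the human symbols by name without regard to case. Each runs 5′ to 3′ on the strand of its gene, from 150 bases before to 50 after the start of the gene. Capitals mark TTTGAA and TTCGAA, forms of the cell cycle homology region, and CCAAT, on either strand, so that TTCAAA and ATTGG are capitals too. The first 7 belong to the gene with the smallest p in each of 7 roles among those that were lower in myotubes and had a window, and the last 2 to the genes with a window and the largest p, which did not pass the test.
PRC1 (Prc1, chr7:80294301-80294500, plus strand): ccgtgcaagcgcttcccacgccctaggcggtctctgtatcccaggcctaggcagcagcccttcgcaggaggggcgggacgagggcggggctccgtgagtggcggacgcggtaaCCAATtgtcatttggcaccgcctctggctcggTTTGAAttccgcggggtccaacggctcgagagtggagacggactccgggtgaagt
CCNB1 (Ccnb1, chr13:100786437-100786636, minus strand): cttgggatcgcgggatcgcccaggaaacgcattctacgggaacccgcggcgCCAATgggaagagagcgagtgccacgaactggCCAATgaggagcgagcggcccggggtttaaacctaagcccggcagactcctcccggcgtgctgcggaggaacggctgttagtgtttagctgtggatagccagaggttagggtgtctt
UBE2S (Ube2s, chr7:4812291-4812490, minus strand): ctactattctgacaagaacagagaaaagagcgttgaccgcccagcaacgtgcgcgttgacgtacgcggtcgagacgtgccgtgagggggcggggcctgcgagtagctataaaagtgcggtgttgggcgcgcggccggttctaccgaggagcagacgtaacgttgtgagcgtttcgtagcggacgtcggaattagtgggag
NUSAP1 (Nusap1, chr2:119618148-119618347, plus strand): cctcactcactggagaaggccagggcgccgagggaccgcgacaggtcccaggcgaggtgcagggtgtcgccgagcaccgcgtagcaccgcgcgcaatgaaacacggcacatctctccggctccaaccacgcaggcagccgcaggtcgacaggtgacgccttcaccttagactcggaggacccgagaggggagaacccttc
KIF11 (Kif11, chr19:37376232-37376431, plus strand): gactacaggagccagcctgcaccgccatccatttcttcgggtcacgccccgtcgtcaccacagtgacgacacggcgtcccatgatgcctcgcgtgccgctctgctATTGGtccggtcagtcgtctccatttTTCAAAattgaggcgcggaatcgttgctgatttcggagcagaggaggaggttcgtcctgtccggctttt
MELK (Melk, chr4:44300767-44300966, plus strand): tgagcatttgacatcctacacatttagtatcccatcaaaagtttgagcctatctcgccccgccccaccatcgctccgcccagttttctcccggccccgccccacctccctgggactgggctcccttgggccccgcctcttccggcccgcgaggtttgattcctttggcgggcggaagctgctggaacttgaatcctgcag
TOP2A (Top2a, chr11:99024140-99024339, minus strand): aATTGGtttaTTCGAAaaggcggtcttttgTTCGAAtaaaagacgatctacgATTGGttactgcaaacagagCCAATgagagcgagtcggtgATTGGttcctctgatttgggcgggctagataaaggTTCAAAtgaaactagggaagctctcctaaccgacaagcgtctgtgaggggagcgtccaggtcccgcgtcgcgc
KIFC1 (Kifc1, chr17:33890584-33890783, minus strand): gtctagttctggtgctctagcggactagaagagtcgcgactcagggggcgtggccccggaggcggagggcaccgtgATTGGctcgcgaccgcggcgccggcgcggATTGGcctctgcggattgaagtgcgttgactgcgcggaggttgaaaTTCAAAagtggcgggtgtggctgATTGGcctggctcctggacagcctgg
GTSE1 (Gtse1, chr15:85859557-85859756, plus strand): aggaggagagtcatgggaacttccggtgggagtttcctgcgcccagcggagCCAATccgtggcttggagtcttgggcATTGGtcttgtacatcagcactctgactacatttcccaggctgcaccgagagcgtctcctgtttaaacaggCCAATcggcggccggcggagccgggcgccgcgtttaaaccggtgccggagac

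In PRC1 a TTTGAA began at position -5 from the start and a CCAAT at -37. KIF11 held the same pair on the other strand, at -19 and -45. TOP2A held 3 of the TTTGAA or TTCGAA letters and 4 CCAAT boxes in this window. CCNB1 held 2 CCAAT boxes and neither TTTGAA nor TTCGAA. No other spelling of the homology region was searched, so this does not show that CCNB1 lacks it. The windows of UBE2S, NUSAP1 and MELK held none of these letters, although all 3 genes were lower in myotubes, and UBE2S held a TTCGAA farther out, at -162. Conversely, KIFC1 held a TTTGAA at 1 and 3 CCAAT boxes, and GTSE1 held 3 CCAAT boxes. Neither gene passed the test on its brightest probe set, although a dimmer probe set of GTSE1 was lower in myotubes, as given below.

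RefSeq windows from 250 bases before to 50 after the start were at hand for 43 of the 54 genes. No entry was found for CCNA2, CDC25C, WEE1, PKMYT1, TPX2, PBK, FOXM1, KIF20A, KIF4A, DLGAP5 and STMN1. TTTGAA or TTCGAA, on either strand, was present in 31 of the 43 windows (72.1%), against 19.4% of the windows of 27025 mouse genes. CCAAT was present in 32 of the 43 (74.4%), against 37.9% of all windows. Both occurred in 26 (60.5%), against 7.7% of all windows, and no match of one shared a base with a match of the other. The homology region letters lay near the start, beginning within the span from -50 to 50 in 25 of the 43 windows (58.1%), against 5.29% of all windows. Of 24 genes lower in myotubes, 70.8% held TTTGAA or TTCGAA and 75% held CCAAT, against 75% and 81.2% of 16 genes that were tested and did not pass. These shares are descriptions of letters: a match is not a bound site, and no match says only that the letters are not in the window.

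**Figure D1:**
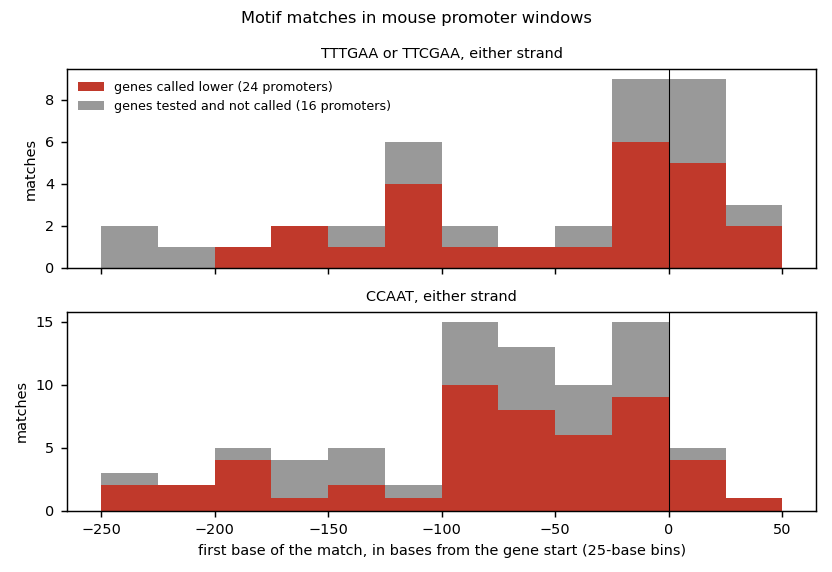
Histograms of where matches began in the mouse promoter windows, in bases from the gene start (x axis, bins of 25 bases), with the number of matches on the y axis, for TTTGAA or TTCGAA (top) and CCAAT (bottom); red is genes lower in myotubes (24 windows) and grey is genes tested that did not pass (16 windows). The homology region matches gather around the start and the CCAAT matches within the 100 bases before it, in both sets of genes.

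The deposited signals are on a linear scale, and on each array their trimmed mean was between 1500.4 and 1500.5. The highest of the unspiked bacterial control probe sets marks a level under which a signal was not told from background. It was 731, 1040.2 and 520.1 on myotube arrays 1, 2 and 3, and 919.9, 326 and 252 on myoblast arrays 1, 2 and 3. Spike-in controls had geometric means of 12320.2 to 71439 on the myotube arrays and 3539 to 48119 on the myoblast arrays, where array 1 was the highest. Myoblast arrays 2 and 3 shared a chip lot and correlated at r = 0.988 over probe sets, beside 0.872 to 0.889 for every other pair of arrays from one group. Across groups, myotube array 3 correlated with the 3 myoblast arrays at 0.870 to 0.881, close to the values within a group. Myotube arrays 1 and 2 correlated with them at 0.737 to 0.843. Laboratory codes run on from the 3 myotube arrays to myoblast array 1, taken here as a first laboratory series, and myoblast arrays 2 and 3 form a second. Scan day separated myotube from myoblast arrays completely and cannot be told apart from the group, and each chip lot held arrays of 1 group only.

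Muscle structural genes separated the groups as labelled. Of 15 myotube markers on the array 12 were tested, and 11 were higher in myotubes by limma with adjusted p under 0.05. Of all 8161 tested genes, 5.39% were higher. The summed signal of the 15 was 57666 to 64291 on the myotube arrays and 3901 to 14438 on the myoblast arrays, with the top of the myoblast range on array 1. The myotube markers CKM, MYOG and TNNI2 lay at or below the control on all 6 arrays. Of the myoblast list, MYF5 and PAX7 lay at or below it on all 6 arrays, and 0 of the 3 tested members passed in limma. At an unadjusted p under 0.05 limma put 1 of the 3, CDH15, higher in myotubes (log2 0.80). The summed signal of the 6 myoblast markers was 4528 to 5169 on the myotube arrays and 1715 to 4957 on the myoblast arrays. This list was thus not brighter on the myoblast arrays. Genes listed as fibroblast markers were bright, with 8 of 10 tested higher in myotubes, against 5.39% of all tested genes. Their summed signals were 424016 to 642303 on myotube arrays and 130930 to 299591 on myoblast arrays. The labels name 1 cell line and no fibroblasts, and which cells made these transcripts was not tested. What part these differences have in the values below was not tested. In RNA from whole cultures, fewer cells of a type and less RNA per cell cannot be told apart.

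Most of the tested mitotic genes were lower in myotubes and none passed the test as higher. In limma on log2(signal + 197), with Benjamini-Hochberg adjustment over 13329 probe sets and a threshold of 0.05, 32 of the 51 tested genes were lower (62.7%), 0 were higher and 19 did not pass. Without adjustment, at p under 0.05, limma put 1 gene higher, CDC25B. Among all 8161 tested genes, 6.73% were lower and 5.39% higher. The median log2 change of the 51, myotube minus myoblast, was -1.54, beside 0.12 over all tested genes. The filter keeps a gene on its mean over both groups, so a gene that is bright in myoblasts alone can pass through them. In each of the 32, every myotube signal lay below every myoblast signal, and so it did in 4 genes that did not pass, against 16.3% of all tested genes. The 32 fitted changes ran from -3.56 for PRC1 to -1.13 for UBE2C. In 17 of the 32 all 3 myotube signals were at or below the control of their array, so that the fitted log2 change of such a gene rests on signals not told from background and its measured fall is a bound, given as "at least". In 9 others 1 or 2 myotube signals were at or below the control, and 6 lay above it on all 3 myotube arrays. The changes of those 9 thus rest partly on signals not told from background. The 9 were CCNB1, CCNB2, AURKA, TPX2, MELK, SPAG5, CKAP2, STMN1 and TOP2A. Other folds are on the log2(signal + 197) scale. The bounds ran from at least 1.34-fold lower for PLK4 to at least 5.25-fold lower for CDC20, and 7 of the 17 were under 2-fold. For NEK2 and TACC3, among the 17, the myoblast signal on array 1 was also at or below the control, so their folds are not firm bounds.

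**Figure D2:**
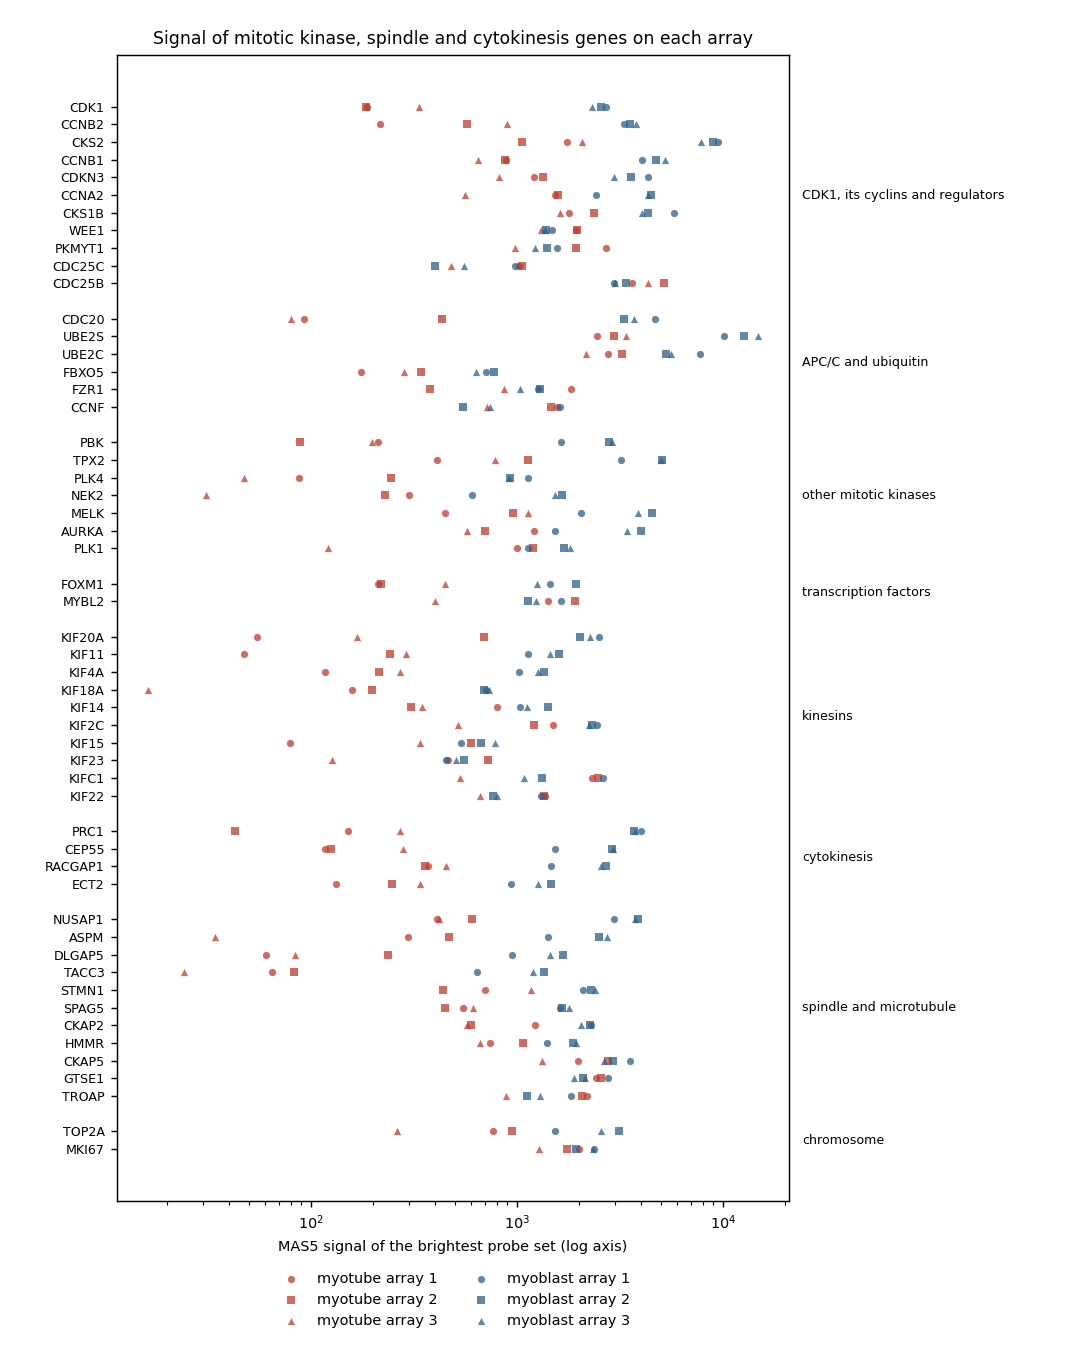
Signal of the brightest probe set of each gene on each array (x axis, MAS5 signal, log axis), genes in rows by role, myotube arrays in red and myoblast arrays in blue, with 1 marker shape per replicate number. In 37 of 53 rows all red markers lie left of all blue ones, and myotube array 3 (red triangle) often lies farthest left.

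The core of the mitotic switch, CDK1 and its cyclins, was lower in myotubes. Of the 11 genes for CDK1, its cyclins and its regulators, 7 were lower and 4 missed the threshold. The median log2 change was -1.52. CCNB1, the B-type cyclin that carries CDK1 into mitosis, had signals on arrays 1, 2 and 3 of 882, 877 and 644 in myotubes, against 4036, 4717 and 5243 in myoblasts. The groups lay far apart, and the log2 change of CCNB1 was -2.29 ± 0.22 (SE, n = 3 each; limma adjusted p = 0.000475). CKS2, a small subunit of CDK complexes, had signals of 1758, 1062 and 2066 in myotubes, against 9511, 8940.1 and 7872 in myoblasts. It stayed above the control on every myotube array, so its 5.05-fold fall was measured on both sides (log2 -2.34 ± 0.23, limma adjusted p = 0.000516). CDK1 itself, the kinase, had signals of 188, 186 and 335 in myotubes, against 2712, 2572 and 2318 in myoblasts. Its myotube signals did not exceed the control, and CDK1 was at least 3.44-fold lower (log2 -2.67 ± 0.30, limma adjusted p = 0.000779). CCNB2, the second B-type cyclin, had signals of 216, 575 and 891 in myotubes, against 3326, 3524 and 3791 in myoblasts. Myotube array 3 was its highest myotube array yet lay well below the myoblasts (log2 -2.41 ± 0.34, limma adjusted p = 0.0027). CCNA2, the cyclin of S and G2 phase, CKS1B, the other small subunit, and CDKN3, a phosphatase that acts on CDKs, were lower too. CCNA2 signals ran over 558 to 1580.1 in myotubes, against 2417 to 4467 in myoblasts. Those of CKS1B were 1613 to 2376 in myotubes, against 4037 to 5820.1 in myoblasts, and those of CDKN3 821 to 1336 in myotubes, against 2956 to 4352 in myoblasts. None of the 3 overlapped between groups, and their log2 changes were -1.52, -1.21 and -1.54, with limma adjusted p-values of 0.024, 0.00829 and 0.00451.

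The 4 genes of this group that did not pass were the kinases that restrain CDK1 and the phosphatases that release it. CDC25B, a phosphatase that activates CDK complexes, had signals of 3626, 5191 and 4349 in myotubes, against 2955, 3398 and 2980.4 in myoblasts. It was the only tested gene of the list with every myotube signal above every myoblast signal, but its log2 change of 0.46 (95% interval 0.03 to 0.89) did not pass after adjustment (limma adjusted p = 0.142). CDC25C, the related phosphatase, had signals of 1025, 1056 and 480.2 in myotubes, against 974, 401 and 553 in myoblasts, and the groups overlapped. WEE1, which adds the inhibitory phosphate to CDK1, had signals of 1943, 1968 and 1306 in myotubes, against 1485, 1386 and 1365 in myoblasts. PKMYT1, the membrane-bound kinase of the same kind, had signals of 2699, 1942 and 978 in myotubes, against 1564, 1405 and 1225 in myoblasts. In WEE1 and PKMYT1 myotube array 3 lay below every myoblast array while the other two lay above them all. The 95% intervals of the log2 change were -0.55 to 1.21 for CDC25C, -0.29 to 0.79 for WEE1 and -0.44 to 1.01 for PKMYT1. Each interval lies above the changes of both B-type cyclins.

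Among the 6 genes of the anaphase-promoting complex and ubiquitin transfer, 3 were lower and 3 missed the threshold, and the median log2 change was -1.05. CDC20, which activates the complex in mitosis, had signals of 92.5, 435 and 79.8 in myotubes, against 4677, 3323 and 3693 in myoblasts. Its 3 myotube signals lay far under the control, and CDC20 was at least 5.25-fold lower (log2 -3.46 ± 0.36, limma adjusted p = 0.000602). UBE2S, which extends ubiquitin chains for the complex, had signals of 2438, 2944 and 3399 in myotubes, against 10119, 12597 and 14856 in myoblasts. It stayed above the control on every array and fell 4.06-fold (log2 -2.02 ± 0.20, limma adjusted p = 0.000516). UBE2C, which starts those chains, had signals of 2771, 3248 and 2168 in myotubes, against 7769, 5317 and 5613 in myoblasts. The groups stayed apart and the signals were above the control on every array (log2 -1.13 ± 0.22, limma adjusted p = 0.0104). FZR1, the activator used at mitotic exit and in G1, had signals of 1822, 380.3 and 867 in myotubes, against 1265, 1298 and 1032 in myoblasts. Its myotube signals spread on both sides of the myoblast ones, and the 95% interval of its log2 change was -1.30 to 0.56. FBXO5, an inhibitor of the complex, had signals of 175, 344 and 285 in myotubes, against 707, 774 and 629.8 in myoblasts. Here the groups did not overlap, yet its myotube signals were at or below the control and its log2 change of -0.97 did not pass (limma adjusted p = 0.125, 95% interval -1.82 to -0.12). CCNF, an F-box protein of another ubiquitin ligase, had signals of 1569, 1466 and 718 in myotubes, against 1622, 546 and 739.8 in myoblasts. Myoblast array 1 stood with myotube arrays 1 and 2, and the 95% interval was -0.53 to 1.25.

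Of the 7 other mitotic kinases, counting the Aurora activator TPX2, 6 were lower and 1 missed the threshold, with -1.91 as their median log2 change. PBK, a kinase active in mitosis, had signals of 211, 88.5 and 198 in myotubes, against 1639, 2809 and 2881 in myoblasts. All 3 myotube signals were at or below the control, and PBK was at least 3.22-fold lower (log2 -2.84 ± 0.35, limma adjusted p = 0.00139). TPX2, which activates Aurora A on the spindle, had signals of 412, 1128 and 779 in myotubes, against 3205, 5056 and 4999 in myoblasts (log2 -2.29 ± 0.31, limma adjusted p = 0.00231). MELK, a kinase of the AMPK family, had signals of 449, 957 and 1127 in myotubes, against 2048, 4505 and 3864 in myoblasts (log2 -1.81 ± 0.35, limma adjusted p = 0.0112). In PBK, TPX2 and MELK alike, myoblast array 1 was the lowest of the myoblasts and still above every myotube array. PLK4, the kinase of centriole duplication, had signals of 87.3, 244 and 47.3 in myotubes, against 1128, 929 and 912 in myoblasts, and was at least 1.34-fold lower (log2 -1.92 ± 0.41, limma adjusted p = 0.0171). AURKA, the Aurora kinase of centrosomes and spindle poles, and NEK2, a kinase that parts the centrosomes, were lower as well. AURKA signals were 573 to 1217 in myotubes, against 1524 to 3991 in myoblasts, and NEK2 signals 31 to 300.3 in myotubes, against 607 to 1652 in myoblasts. Their myoblast ranges are wide, with array 1 at the low end, and the fitted log2 changes were -1.58 and -1.91, with limma adjusted p-values of 0.0229 and 0.029. All 3 myotube signals of NEK2 were at or below the control, and so was its myoblast signal on array 1. The fold against the control was 1.57 with that myoblast signal as read, so it is not a firm bound. PLK1, the Polo kinase that acts from mitotic entry to cytokinesis, had signals of 1003, 1198 and 121 in myotubes, against 1135, 1685 and 1813 in myoblasts. Myotube array 3 was low, but myotube array 2 exceeded myoblast array 1, and PLK1 did not pass (log2 -1.08 ± 0.51, 95% interval -2.21 to 0.05, limma adjusted p = 0.182).

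The 2 transcription factors differed in their calls. FOXM1, which switches on late cell cycle genes, had signals of 212, 218 and 449 in myotubes, against 1443, 1934 and 1253 in myoblasts. It was at least 2.07-fold lower in myotubes (log2 -1.84 ± 0.35, limma adjusted p = 0.0098). MYBL2, its partner on the MuvB core, had signals of 1418, 1916 and 399 in myotubes, against 1640.2, 1138 and 1233 in myoblasts. The highest and the lowest MYBL2 signals were both from myotube arrays, and the log2 change was -0.26 (95% interval -1.22 to 0.69, limma adjusted p = 0.701). Whether the changes of FOXM1 and MYBL2 differed from each other was not tested.

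Kinesins, the motors of the spindle, had 3 of 8 tested genes lower and 5 not passed, with a median log2 change of -1.09. KIF20A, which takes the chromosomal passenger proteins to the central spindle, had signals of 54.8, 689 and 168 in myotubes, against 2514, 2027 and 2276 in myoblasts. Its myotube signals differed widely from one another, all under the control, and it was at least 3.08-fold lower (log2 -2.51 ± 0.44, limma adjusted p = 0.00733). KIF11, the motor that pushes the spindle poles apart, had signals of 47.1, 242 and 289 in myotubes, against 1131, 1604 and 1450.3 in myoblasts (log2 -2.08 ± 0.39, limma adjusted p = 0.0098). KIF4A, which binds chromosome arms and the central spindle, had signals of 117, 214 and 269 in myotubes, against 1028, 1348 and 1270.2 in myoblasts (log2 -1.84 ± 0.36, limma adjusted p = 0.0117). KIF11 and KIF4A were at least 1.88-fold and at least 1.64-fold lower. KIF2C, which shortens microtubules at kinetochores, had signals of 1503, 1205 and 518 in myotubes, against 2457, 2317 and 2234 in myoblasts. KIF14, a motor of the midbody, had signals of 805, 308 and 344 in myotubes, against 1035, 1422 and 1117 in myoblasts. In both the groups stayed apart, but KIF2C (limma adjusted p = 0.0553) and KIF14 (limma adjusted p = 0.0798) missed the threshold, with log2 changes of -1.08 and -1.09. KIF22, a motor on chromosome arms, had signals of 1376, 1347 and 665 in myotubes, against 1308, 767 and 803 in myoblasts, with overlap and a 95% interval of -0.58 to 0.93. KIF15 had signals of 78.8, 599 and 339.8 in myotubes, against 535, 671 and 785 in myoblasts. KIFC1 had signals of 2327, 2480.0 and 528 in myotubes, against 2629, 1319.8 and 1080.3 in myoblasts. Both, motors that work on spindle microtubules, overlapped between groups and had 95% intervals of -1.83 to 0.23 for KIF15 and -1.14 to 1.03 for KIFC1. KIF18A, which limits chromosome movements, and KIF23, the motor of centralspindlin, were below the filter and not tested. KIF18A had signals of 158, 199 and 16.2 in myotubes, against 704, 693 and 729 in myoblasts, with no overlap. KIF23 had signals of 464, 727 and 127 in myotubes, against 453, 554 and 506 in myoblasts, with overlap.

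All 4 cytokinesis genes with a probe set were lower, with a median log2 change of -2.41. PRC1, which bundles the microtubules of the central spindle, had signals of 152, 42.7 and 272 in myotubes, against 4013, 3702 and 3750.4 in myoblasts. It was at least 5.2-fold lower (log2 -3.56 ± 0.32, limma adjusted p = 0.000383), and its 3 myoblast signals were nearly equal. CEP55, which gathers the abscission machinery at the midbody, had signals of 117, 125 and 279 in myotubes, against 1523, 2896 and 2939.7 in myoblasts, and was at least 3.2-fold lower (log2 -2.81 ± 0.37, limma adjusted p = 0.00179). RACGAP1, a subunit of centralspindlin, had signals of 371, 357 and 454 in myotubes, against 1464, 2717 and 2552 in myoblasts, and was at least 2.95-fold lower (log2 -2.01 ± 0.31, limma adjusted p = 0.00422). ECT2, the exchange factor that activates RhoA at the cleavage furrow, had signals of 132, 249 and 339.9 in myotubes, against 941, 1461 and 1260.5 in myoblasts, and was at least 1.64-fold lower (log2 -1.71 ± 0.37, limma adjusted p = 0.0174). In CEP55, RACGAP1 and ECT2 myoblast array 1 was the lowest of its group. ANLN, the scaffold of the contractile ring, had no probe set assigned to it alone.

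Of 11 spindle and microtubule genes 7 were lower, and the median log2 change of the 11 was -1.37. NUSAP1, which bundles spindle microtubules, had signals of 410.0, 607 and 419 in myotubes, against 2962, 3861 and 3744 in myoblasts, and was at least 4.76-fold lower (log2 -2.46 ± 0.25, limma adjusted p = 0.000573). ASPM, a protein of the spindle poles, had signals of 298, 468 and 34.3 in myotubes, against 1418, 2511 and 2723 in myoblasts (log2 -2.46 ± 0.44, limma adjusted p = 0.00758). On myotube array 3 the ASPM signal lay far under those of the other myotube arrays. DLGAP5, which stabilises kinetochore fibres, had signals of 60.3, 238 and 83.8 in myotubes, against 947, 1674 and 1452 in myoblasts (log2 -2.27 ± 0.40, limma adjusted p = 0.00762). TACC3, which links the microtubules of those fibres, had signals of 64.6, 83 and 24.3 in myotubes, against 643, 1351 and 1201 in myoblasts (log2 -2.27 ± 0.44, limma adjusted p = 0.0105). As bounds, ASPM was at least 2.9-fold and DLGAP5 at least 1.8-fold lower. For TACC3 the same measure gave 1.38-fold, but its myoblast signal on array 1 was also at or below the control, so this is not a firm bound. STMN1, which destabilises microtubules, SPAG5, a protein of the mitotic spindle and kinetochores, and CKAP2, a spindle-associated protein, had non-overlapping signals as well. STMN1 was at 437 to 1165 in myotubes, against 2099 to 2389 in myoblasts. SPAG5 was at 450.1 to 611 in myotubes, against 1625 to 1789 in myoblasts, and CKAP2 at 574 to 1221 in myotubes, against 2048 to 2297 in myoblasts. The 3 were lower by 2.67-fold, 2.58-fold and 2.51-fold, with limma adjusted p-values of 0.0177, 0.0124 and 0.0193. STMN1 and SPAG5 were at or below the control on 2 myotube arrays and CKAP2 on 1, so these folds rest partly on background.

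The spindle genes that did not pass were HMMR, CKAP5, GTSE1 and TROAP. HMMR, a hyaluronan receptor that also sits on spindle microtubules, had signals of 742, 1077 and 662 in myotubes, against 1396, 1880.0 and 1935 in myoblasts. The groups did not overlap, and the log2 change was -0.93 ± 0.28 with a limma adjusted p of 0.0577, which just missed the threshold. CKAP5, a microtubule polymerase, had signals of 1989, 2782 and 1327 in myotubes, against 3538, 2915 and 2645 in myoblasts (95% interval -1.16 to 0.01). GTSE1, a microtubule-binding protein of G2 and mitosis, had signals of 2433, 2550.0 and 2153 in myotubes, against 2756, 2085 and 1903 in myoblasts (95% interval -0.39 to 0.56). TROAP, a protein needed for spindle assembly, had signals of 2182, 2061 and 884 in myotubes, against 1825, 1114 and 1293 in myoblasts (95% interval -0.56 to 0.93). In CKAP5, GTSE1 and TROAP the groups overlapped, and myotube array 3 was the lowest myotube array of each.

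Of the 2 chromosome genes, TOP2A, the topoisomerase that untangles sister chromatids, was lower. It had signals of 764, 944 and 261 in myotubes, against 1532, 3136 and 2555 in myoblasts (log2 -1.66 ± 0.39, limma adjusted p = 0.0233). MKI67, the Ki-67 protein that coats mitotic chromosomes and is widely used as a mark of proliferation, had signals on its brightest probe set of 2003, 1744 and 1279 in myotubes, against 2362, 1944 and 2332 in myoblasts. There it did not pass, with a log2 change of -0.38 ± 0.23 (95% interval -0.89 to 0.14, limma adjusted p = 0.29), and of its 3 other tested probe sets 1 was lower and 2 did not pass.

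**Figure D3:**
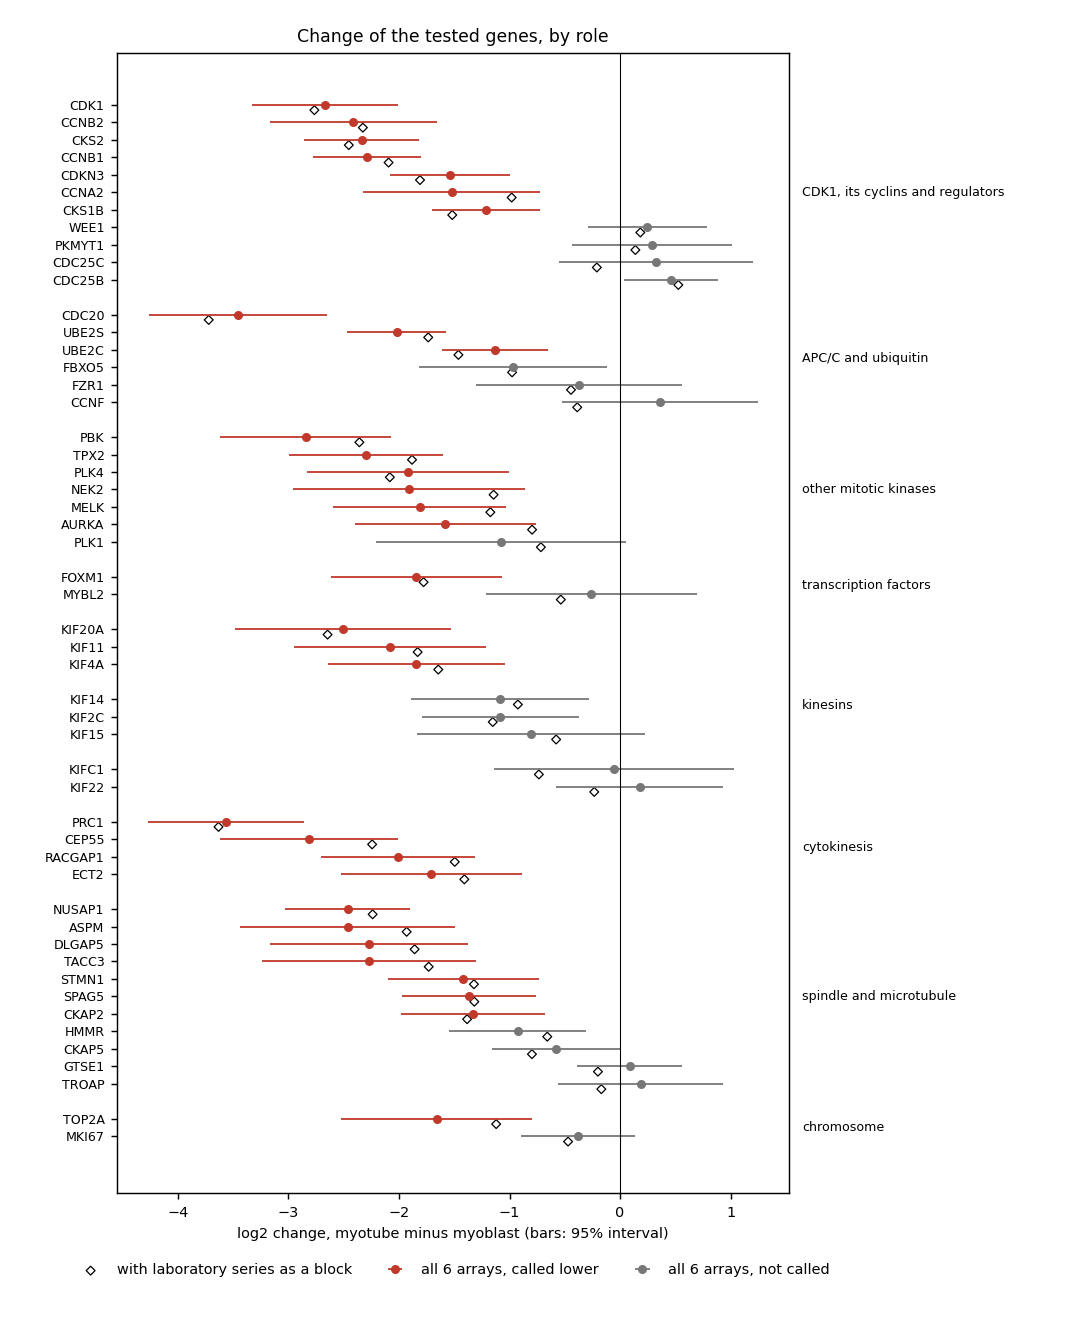
Log2 change, myotube minus myoblast (x axis), of the tested genes by role, with 95% intervals; red is lower by limma with adjusted p under 0.05, grey did not pass, and open diamonds are the changes with laboratory series as a block. All 32 red points and their diamonds lie left of 0, and the grey points lie on both sides of it.

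Where a gene had more than 1 tested probe set, the probe set could decide the call. The array held 79 probe sets for these genes alone, of which 69 were tested, 41 were lower (59.4%, against 6.4% of all 13329 tested probe sets) and 0 higher by limma (1 higher at an unadjusted p under 0.05). Of 13 genes with several tested, 5 were lower on each one, CCNA2, CDK1, AURKA, NUSAP1 and TOP2A, and 4 had none called, WEE1, FZR1, KIF22 and KIF2C. The other 4, MKI67, HMMR, GTSE1 and NEK2, were split. For MKI67 a dimmer probe set had signals of 375, 163 and 197 in myotubes, against 2104, 1824 and 1459 in myoblasts (log2 -2.19 ± 0.34, limma adjusted p = 0.00406), and with all 3 myotube signals at or below the control it was at least 2.42-fold lower. The other 2 MKI67 probe sets did not pass, with log2 changes of -0.34 ± 0.39 and -0.55 ± 0.40 (limma adjusted p = 0.58 and 0.364). The second probe set of HMMR had signals of 219.9, 132 and 472 in myotubes, against 1146, 1835 and 1931 in myoblasts (log2 -1.99 ± 0.38, limma adjusted p = 0.0104), a bound of at least 2.17-fold lower. A dimmer probe set of GTSE1 had signals of 329, 152 and 92 in myotubes, against 693, 975 and 895 in myoblasts (log2 -1.47 ± 0.41, limma adjusted p = 0.0446). Its myotube signals, and its myoblast signal on array 1, were at or below the control. The fold against the control, 1.15, is thus not a firm bound. The brightest GTSE1 probe set and the other tested one (log2 -0.77 ± 0.55, limma adjusted p = 0.366) did not pass. NEK2 went the other way, since its dimmer probe set did not pass (log2 -0.59 ± 0.44, limma adjusted p = 0.379). The brightest probe sets of PKMYT1, FOXM1 and GTSE1 are of the kind whose suffix (x) marks probes that may also match other transcripts. Which probe set reads its transcript better was not tested.

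**Figure D4:**
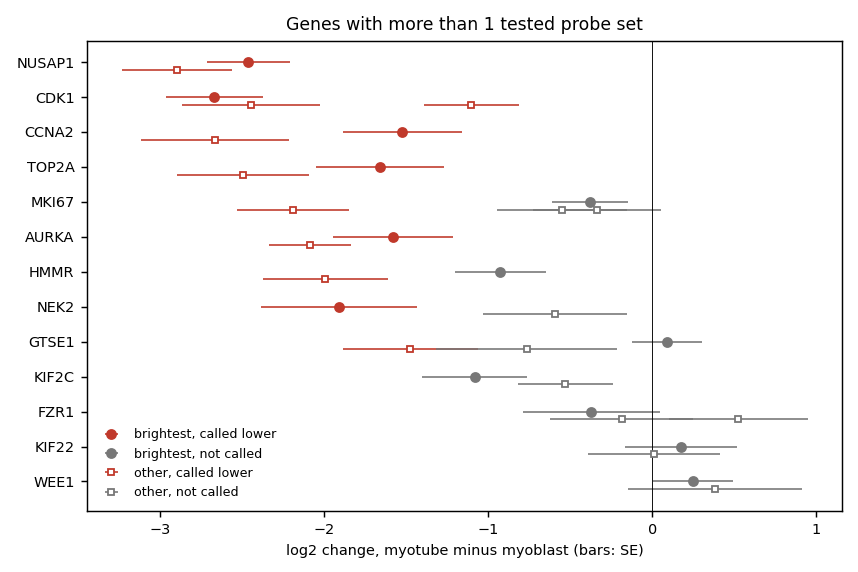
Log2 change, myotube minus myoblast, with its SE (x axis) for the 13 genes with more than 1 tested probe set; filled circles are the brightest probe set and open squares the others, red lower by limma with adjusted p under 0.05 and grey not passed. In MKI67, HMMR and GTSE1 a dimmer probe set is red while the brightest is grey.

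The level of these genes also differed between arrays of a group. Taking each gene's log2 level minus its mean over the 6 arrays, the median over the 51 tested genes was -0.68, -0.63 and -0.82 on myotube arrays 1, 2 and 3, and 0.61, 0.89 and 0.78 on myoblast arrays 1, 2 and 3. Over all tested genes the same medians lay between -0.08 and 0.08. Myotube array 3 was the lowest myotube array for 27 of the 51 genes (52.9%), against 35.6% of all tested genes. Myoblast array 1 was the lowest myoblast array for 26 (51%), against 40.9%. This is the myoblast array with the highest sum of myotube markers, and the part of that in its mitotic signals was not tested.

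**Figure D5:**
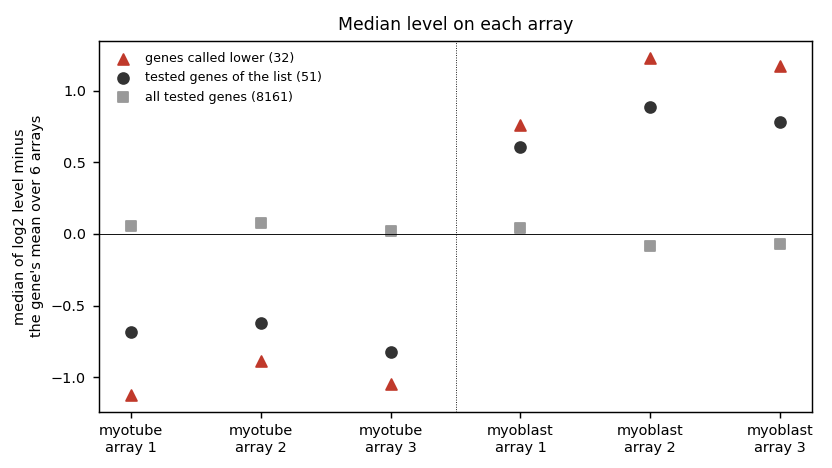
Median over genes of the log2 level minus the gene's own mean over the 6 arrays (y axis) on each array (x axis), for the 32 genes lower in myotubes (red triangles), the 51 tested genes of the list (black circles) and all 8161 tested genes (grey squares). The list lies below 0 on the myotube arrays and above 0 on the myoblast arrays, least so among the myoblasts on array 1, while all genes stay near 0.

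Myoblast array 1 is the only myoblast array in the laboratory series of the myotubes. With that series as a block the contrast rests on this array against the 3 myotube arrays, and 13 of the 51 genes were lower, where 1.16% of all tested genes were. They were CCNB1, CCNB2, CDK1, CKS1B, CKS2, CDKN3, CDC20, UBE2C, UBE2S, PBK, PRC1, CEP55 and NUSAP1. CDK1 and its partners and the ubiquitin enzymes gave 9 of the 13, and kinesins, transcription factors and chromosome genes gave 0. The changes themselves kept their direction in all 32 genes, 30 of them at -1 or lower on the log2 scale. The median over the 51 genes was -1.32. The error of this fit came from the scatter among the myotube arrays and between myoblast arrays 2 and 3, which correlated at r = 0.988. It was taken to hold for myoblast array 1, and the 13 calls rest on that. For 4 genes the change of the brightest probe set shrank by more than 1.5 times. It came to -0.98 for CCNA2, -0.80 for AURKA, -1.17 for MELK and -1.14 for NEK2, with limma adjusted p-values of 0.322, 0.322, 0.187 and 0.348. A dimmer probe set of AURKA had signals of 403, 553 and 520 in myotubes, against 2520 on myoblast array 1. That of CCNA2 had 86.2, 336 and 36.9, against 1074, and that of NEK2 646, 203 and 290, against 951. The myotube signals of these CCNA2 and NEK2 probe sets were at or below the control. In the first series alone, where the spread of the single myoblast array is taken to be that of the myotube arrays, 5 genes were lower. These 5, CCNB1, CKS2, CDC20, UBE2S and PRC1, were also lower in each of the 21 settings that gave them a value, among them each array left out in turn. With chip lot as a random block 18 genes were lower, where 1.85% of all tested genes were. With myoblast arrays 2 and 3 averaged as 1 sample 18 were lower, where 2.51% of all tested genes were. Without myoblast array 2, 14 of the 32 calls were lost, and 13 without myoblast array 3, while 18 held through all 6 such fits.

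Genes of mitosis outside this list moved the same way where they passed the test. They too were chosen with earlier results of these data known, so their counts are descriptions. Of 39 further mitotic genes, of kinetochores, checkpoint, condensin, cohesion and the anaphase-promoting complex, 37 were on the array and 31 tested. Of the 31, 16 were lower (51.6%) and 0 higher by limma (1 higher at an unadjusted p under 0.05), with a median log2 change of -1.01. ZWINT, a kinetochore protein, had signals of 1028, 1122 and 1346 in myotubes, against 5156, 5736 and 4928 in myoblasts (log2 -2.01 ± 0.20, limma adjusted p = 0.000475). CENPF, which binds kinetochores late in the cycle, had signals of 96.1, 348 and 147 in myotubes, against 2054, 2107 and 2186 in myoblasts (log2 -2.61 ± 0.34, limma adjusted p = 0.00198). CDCA8, a subunit of the chromosomal passenger complex, had signals of 234, 130.3 and 129.9 in myotubes, against 1280.0, 2491 and 2587 in myoblasts (log2 -2.64 ± 0.37, limma adjusted p = 0.00255). All myotube signals of CENPF and CDCA8 were at or below the control, so that CENPF was at least 2.88-fold and CDCA8 at least 2.75-fold lower. With laboratory series as a block 6 of the 31 were lower. The DREAM and MuvB subunits act on these promoters. Of 11 DREAM and MuvB genes 8 were on the array and 6 tested, with 1 lower, 0 higher (also without adjustment) and a median log2 change of -0.08, where 6.73% of all tested genes were lower. The 1 was TFDP1, the partner protein of E2F factors, with signals of 2388, 3175 and 3418 in myotubes, against 5241, 8208 and 7151 in myoblasts (log2 -1.14 ± 0.22, limma adjusted p = 0.0106), above the control on every array. With laboratory series as a block 0 of the 6 were lower, and the change of TFDP1 was -0.78 (limma adjusted p = 0.158).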

How the data were processed

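RNA labelled as from C2C12 myotubes and myoblasts had been hybridised to 6 arrays, 3 a group, few enough to limit the precision. The authors deposited 1 linear intensity per probe set. Per the submitters' processing notes it is a MAS5 signal, of a version not given in the sources used here. The deposited run records gave chip lot, scan day and laboratory code. In the 3 myoblast records the replicate numbers differ from those in the titles, and the titles were used. Of 22283 probe sets 68 were controls. The platform annotation, which can be old, named a single gene for 19065 of the remaining probe sets, several for 1043 and none for 2107. Genes were named from the first kind only. Probe sets with a mean signal under the 40th percentile (474) were left out.

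Values were log2(signal + 197), 197 being the 25th percentile of the table, which understates the change of dim genes. Groups were compared on all 6 arrays with two-sided tests in limma 3.58.1 under R 4.3.3 (lmFit, then eBayes with a variance trend; statmod 1.5.0 for the random block), a procedure that was tested on simulated data first. Values after ± are SEs. Where all 3 signals of the dimmer group were at or below the unspiked control of their array, the fold is given as a bound. It sets the mean log2 level of the brighter group, with its signals as read, against that of the dimmer group. Each signal of the dimmer group was raised to the lowest measurable level of its array, the control. A signal of the brighter group that was itself at or below the control leaves the bound not firm. The members, their roles and the further lists were chosen with earlier results of these data known, so their counts are descriptions. Given with the signals of every array were, in each role, up to 4 called genes with the smallest p, those changed against most of their role, and those not called where at most 3, otherwise 2 of them. Of the further lists up to 3 called genes a direction were given. The signals of the remaining genes of the list were added after seeing the values.

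Whether replicate numbers in the titles pair the arrays was not settled. Deviations from the group means of same-numbered arrays correlated at 0.25, -0.18 and 0.38. By the numbers of the run records they correlated at -0.22, -0.14 and -0.44. Alternatives were the pseudocount, the filter, the scaling, the variance model, blocks for replicate number, chip lot and laboratory series, the first series alone, myoblast arrays 2 and 3 averaged, averaging the probe sets of a gene, a minimum of 2-fold, and each array left out. A block by the numbers of the run records was added after seeing the data. Motifs were searched with Python 3.11.15 and figures drawn with matplotlib 3.10.9.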

Additional observations from a re-analysis of the deposited data

How the results depend on the processing

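The 32 genes lower in myotubes were 18 to 33 when each array was left out in turn (18 without myoblast array 2, 19 without myoblast array 3). They were 13 with laboratory series as a block, 5 in the first series alone, 18 with chip lot as a random block and 18 with myoblast arrays 2 and 3 averaged. The count of 0 higher held in each setting run, while at an unadjusted p under 0.05 limma put 1 of the 51, CDC25B, higher. The median log2 change (-1.54) was -1.26 with a pseudocount of 500, -1.32 with the series block and in the first series alone, and -1.79 to -1.40 with an array left out. The 16 further mitotic genes lower were 6 with the series block, 2 in the first series alone, 9 with chip lot, 9 with the averaged arrays, and 7 to 18 with an array left out. All called genes numbered 989 and were 609 without the variance trend, 228 with the series block, 121 in the first series alone, 284 with chip lot, 391 with the averaged arrays, and 341 to 2208 with an array left out. Whether the replicate numbers of the titles pair the arrays was not settled. Not every array correlated best with the one of its own number. With the replicate block on the title numbers, 34 of the genes, 17 further mitotic genes (and 1 higher) and 1502 genes in all were called. With the replicate block on the run record numbers, added after seeing the data, these were 24, 10 and 353. Direction turned only in genes that had not passed. With the series block, and in the first series alone, the log2 change was -0.21 for CDC25C, -0.39 for CCNF, -0.23 for KIF22, -0.20 for GTSE1 and -0.17 for TROAP. With an array left out the changes ran from -0.0034 to 0.65 for PKMYT1, -0.83 to 0.076 for FZR1, -0.63 to 0.28 for MYBL2, -0.38 to 0.56 for KIFC1, -0.014 to 0.23 for GTSE1 and -0.017 to 0.55 for TROAP. The turned values came without myotube array 1 for PKMYT1 and TROAP, without myotube array 2 for FZR1, without myotube array 3 for MYBL2 and KIFC1, without myoblast array 1 for KIFC1 (0.29) and without myoblast array 3 for GTSE1. Averaging the probe sets of a gene gave 0.12 for FZR1 and -0.71 for GTSE1. Fits with fewer arrays have fewer samples behind them, and otherwise the cause was not tested.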
